A study of Mus musculus with 11 samples.

Results

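The colony-stimulating factors are the cytokines that drive blood progenitors to make granulocytes and macrophages, and their transcripts were followed here with those of their receptors in mouse fetal liver. The set held the 3 ligand genes *Csf1*, *Csf2* and *Csf3* and the 4 receptor genes *Csf1r*, *Csf2ra*, *Csf2rb* and *Csf3r*, which are 7 of the 52636 genes listed for each liver. They were chosen by name, as the rows whose Ensembl identifier has one of these symbols in GENCODE M21 for GRCm38, and each symbol matched 1 row. RNA was sequenced from 11 livers of E15.5 embryos, of which 3 were WT, 2 were Tnfr1-/-, 3 lacked both caspase-8 and MLKL (Casp8-/- Mlkl-/-) and 3 lacked both caspase-8 and TNFR1 (Casp8-/- Tnfr1-/-). Loss of the TNF receptor TNFR1 lets embryos without caspase-8 live past the stage at which they otherwise die, and MLKL is the protein that breaks the membrane in necroptosis, and of the double knockouts only Casp8-/- Tnfr1-/- embryos retain it. RNA came from whole livers, so fewer cells of a type and less RNA per cell cannot be told apart in any level below. The labels name the livers as separate samples, and p-values measure the spread between them.

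Colony-stimulating factor 1 (M-CSF, *Csf1*) binds CSF1R, a receptor tyrosine kinase on monocytes and macrophages. GM-CSF (*Csf2*) binds a receptor made of the ligand-specific chain CSF2RA and the signalling chain CSF2RB, which the receptors for interleukin 3 and interleukin 5 share, and mice carry a second copy of the chain, *Csf2rb2*, that serves interleukin 3. G-CSF (*Csf3*) binds CSF3R, the receptor that drives neutrophil production. In emergency granulopoiesis, the stepped-up output of neutrophils in infection, G-CSF and other cytokines rise and the transcription factor C/EBPβ takes a larger part. The comparison over the 4 genotypes addresses whether the higher level of neutrophil genes in Casp8-/- Tnfr1-/- livers went with transcripts of these factors, their receptors and this program. The fetal liver at this age is the main site of blood formation.

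*Csf2rb* and *Csf2rb2* lie next to each other on chromosome 15 and their reads can be told apart only where the copies differ, so the stretch of 60 bases with the most differences in their aligned coding sequences is shown, from the GENCODE M21 transcripts, with the bases that differ in capitals. It starts at coding base 304 in *Csf2rb* and 307 in *Csf2rb2* and holds 13 differences.
Csf2rb: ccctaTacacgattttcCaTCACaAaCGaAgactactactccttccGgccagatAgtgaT
Csf2rb2: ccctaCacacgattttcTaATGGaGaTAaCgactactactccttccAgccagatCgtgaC
Over the 2628 aligned coding bases, 95.2% were identical. Of all 50-base stretches in the transcripts, the length of a read here, 12.3% of those of *Csf2rb* and 18.9% of those of *Csf2rb2* were also found in another gene, in each case most often in the other copy. The counts are of uniquely mapped reads, so reads from such stretches are left out and the levels of both genes are uncertain to that extent.

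RefSeq windows around the start site (250 bases before to 50 after it, GRCm38.p6) were at hand for *Csf1*, *Csf2*, *Csf2ra*, *Csf3r* and *Csf2rb2*. Those of *Csf1* and of 3 receptor genes that lay higher in Casp8-/- Tnfr1-/- livers are shown in part, with matches in capitals, since the receptor genes moved together and *Csf1* moved to another extent. The letters searched, on both strands, were GAGGAA for PU.1, TTGCNNAA for C/EBP and TTCNNNGAA for STAT proteins, which are found in 28.3%, 10.8% and 8.30% of the 32851 windows of the table.
Csf1, chr3:107760470-107760619, minus strand: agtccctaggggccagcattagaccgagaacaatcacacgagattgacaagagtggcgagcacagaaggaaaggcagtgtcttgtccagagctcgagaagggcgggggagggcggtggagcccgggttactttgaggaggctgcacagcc
Csf2ra, chr19:61228419-61228448, minus strand: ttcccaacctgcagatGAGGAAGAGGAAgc
Csf3r, chr4:126024561-126024590, plus strand: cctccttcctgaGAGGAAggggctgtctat
Csf2rb2, chr15:78305722-78305751, minus strand: ggctagtgtccacaaTTCTGAGAAgcaagc
The PU.1 letters stood 2 times in the *Csf2ra* window, 1 time in that of *Csf3r* and 2 times in that of *Csf2rb2*. The STAT letters stood 1 time in the *Csf2rb2* window, and none of the 3 was found in that of *Csf1*. The C/EBP letters were found in none of these receptor windows and stood 1 time in that of *Csf2*, which is not shown. A match is a description of the sequence and was not tested as a binding site.

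Gene counts summed to 23129212 in the shallowest liver and 35819339 in the deepest. The level of a gene in a liver is its CPM, the count scaled to a common library size after edgeR's TMM correction, and levels of different genes are compared only as CPM per kilobase of exon. The 17243 genes with enough reads were tested together by edgeR's quasi-likelihood method, with all genotypes in the model. "Called" means here that the adjusted p (Benjamini-Hochberg) was under 0.05. A pair of livers stood apart. Casp8-/- Tnfr1-/- replicate 3 had a TMM factor of 0.758, correlated with every other liver at a Pearson's r of at most 0.891 across genes, and held 1594 CPM of 12 striated muscle genes against 14.8 to 37.3 in the other 10 livers. Casp8-/- Mlkl-/- replicate 1 had a TMM factor of 0.812 and 228780 CPM of 9 hepatocyte genes against 51614 to 107809 in the other 10 livers. Calls of the members and the counts of each gene list are therefore also given without this pair.

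Of the 7 genes, 5 passed the filter on low counts (*Csf1*, *Csf1r*, *Csf2ra*, *Csf2rb* and *Csf3r*), and *Csf2* and *Csf3* did not. Against WT, 4 of the 5 were called higher in Casp8-/- Tnfr1-/- livers and 0 lower, beside 5.1% of all genes tested called higher and 0.702% lower. Against Tnfr1-/- livers 2 of the 5 were called higher (*Csf1* and *Csf2rb*) and 0 lower, beside 2.05% and 0.122% of all genes. Against Casp8-/- Mlkl-/- livers these same 2 were called higher and 0 lower, beside 1.54% and 0.116%. The 3 comparisons share the Casp8-/- Tnfr1-/- livers. Between Casp8-/- Mlkl-/- and WT livers, and between Tnfr1-/- and WT livers, 0 of the 5 were called, beside 0.0058% and 0% of all genes called in either direction. In the first of these comparisons 971 genes had an unadjusted p under 0.05 and DESeq2's Wald test called 90 genes, and in the second the counts were 186 and 0. The 3 Casp8-/- Tnfr1-/- livers lay above all 8 others for 4 of the 5 genes (*Csf1*, *Csf2ra*, *Csf2rb* and *Csf3r*), beside 7.43% of all genes tested that lay above and 3.32% that lay below.

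Without the pair of livers that stood apart, a fit chosen after the data had been seen called 4 of the 5 genes higher in Casp8-/- Tnfr1-/- livers in each of the 3 comparisons. All genes rose in number too, with 17.8% called higher against WT, 13.9% against Tnfr1-/- and 12% against Casp8-/- Mlkl-/- livers. Of the 16958 genes tested in this fit, 2297, 1577 and 1035 were called lower in the same order of comparisons. In this fit *Csf3r* was also called higher in Casp8-/- Mlkl-/- than in WT livers, by 0.48 on the log2 scale (edgeR adjusted p = 0.0400), beside 3.23% of all genes.

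**Figure D1:**
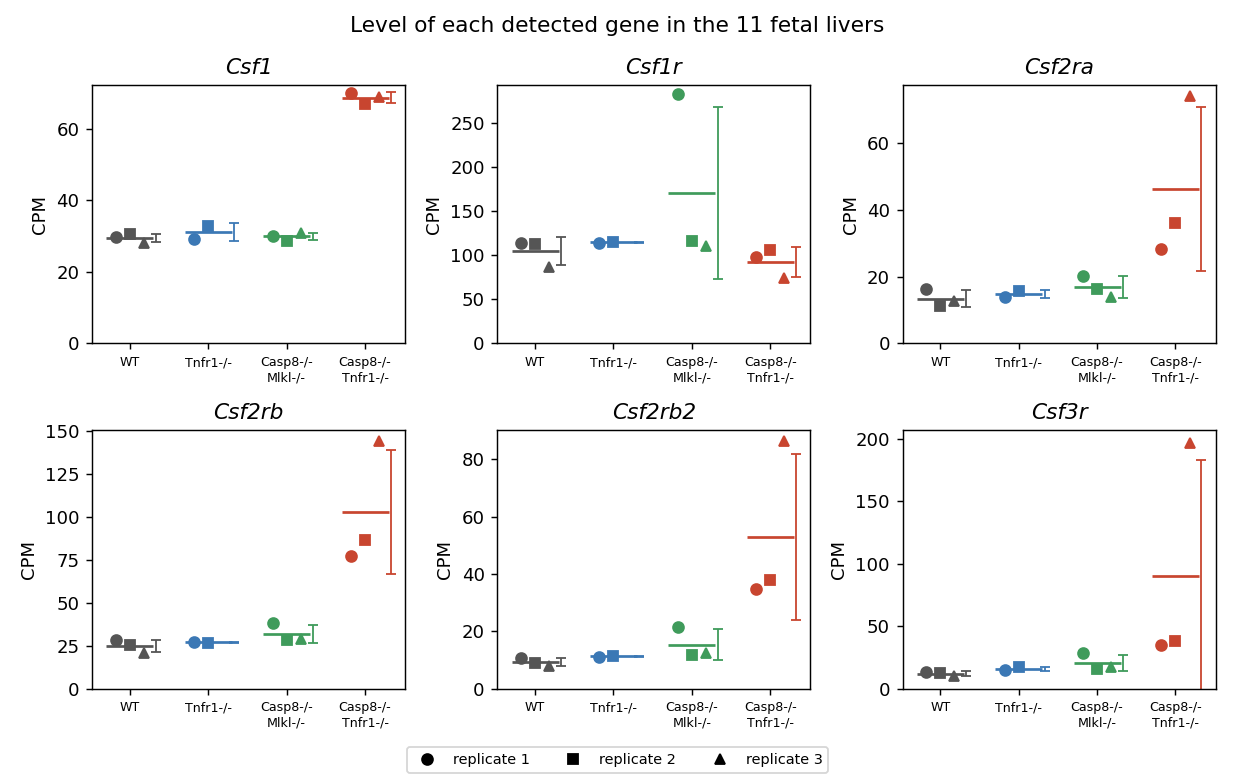
Level of *Csf1*, *Csf1r*, *Csf2ra*, *Csf2rb*, *Csf2rb2* and *Csf3r* in CPM (vertical axes, from 0) in each liver by genotype, with replicates as circles, squares and triangles, group means as lines and SD as bars (the bar of *Csf3r* in Casp8-/- Tnfr1-/- livers is cut at 0). *Csf1* lies between 66.9 and 69.9 CPM in the 3 Casp8-/- Tnfr1-/- livers and between 28.1 and 32.9 in the other 8, while *Csf3r* reaches 197 CPM in 1 Casp8-/- Tnfr1-/- liver and 35.1 and 38.1 in the other two.

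Of the ligands, only *Csf1* (chr3:107741048-107760469, minus strand), the growth factor of macrophages, was measured at a level that could be tested. WT livers held 29.7, 30.4 and 28.1 CPM of *Csf1*, Tnfr1-/- livers 29.3 and 32.9, and Casp8-/- Mlkl-/- livers 30.1, 28.7 and 30.8. The Casp8-/- Tnfr1-/- livers held 69.9, 66.9 and 68.8 CPM. Those 3 livers lay close together and well above the 8 others, whose genotypes overlapped. The log2 fold change was 1.22 ± 0.11 (SE) against WT (2.33-fold, edgeR adjusted p = 3.46e-04), 1.14 ± 0.13 against Tnfr1-/- (adjusted p = 0.00204) and 1.20 ± 0.11 against Casp8-/- Mlkl-/- livers (adjusted p = 8.96e-04). Between Casp8-/- Mlkl-/- and WT livers it was 0.02, with a 95% interval of -0.23 to 0.27. Unlike *Csf2ra*, *Csf2rb* and *Csf3r*, *Csf1* was not higher in Casp8-/- Tnfr1-/- replicate 3 than in the other two livers of that genotype, and without the pair of livers that stood apart its log2 fold change against WT was 1.23. The call against Tnfr1-/- livers was lost without either Tnfr1-/- liver, at 1.04 without replicate 1 and 1.21 without replicate 2 (edgeR adjusted p = 0.0955 and 0.0547).

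*Csf3*, the gene for G-CSF (chr11:98701263-98703629, plus strand), was close to absent. It had 0, 1 and 0 counts in WT livers, 0 and 0 in Tnfr1-/- livers, 0, 0 and 0 in Casp8-/- Mlkl-/- livers and 0, 1 and 10 in Casp8-/- Tnfr1-/- livers. Of the 11 counts in that genotype, 10 came from replicate 3, the liver with the striated muscle RNA, where they made 0.570 CPM. The groups overlapped at 0, and the exact permutation test of 3 livers against 8 (two-sided, 165 splits) gave p = 0.103. *Csf2*, the gene for GM-CSF (chr11:54247271-54249667, minus strand), had 0 counts in all 11 livers. A count of 0 in a liver allows up to 3 counts, which is 0.0821 to 0.171 CPM at these depths and covers counting error only. At this depth a difference in *Csf2* was not detectable.

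The level of *Csf1r* (chr18:61100598-61132149, plus strand), the receptor for CSF-1, did not follow that of its ligand. It measured 114, 113 and 87.0 CPM in WT livers, 114 and 115 in Tnfr1-/- livers and 98.6, 106 and 73.8 in Casp8-/- Tnfr1-/- livers. Casp8-/- Mlkl-/- livers held 283, 117 and 111 CPM. The highest of these is replicate 1, the liver with the most hepatocyte RNA and also the highest sum of 20 macrophage genes (2168 CPM). The groups overlapped, and the 3 Casp8-/- Tnfr1-/- livers did not separate from the 8 others (exact permutation test, two-sided, p = 0.236). The log2 fold change against WT was -0.18 with a 95% interval of -0.92 to 0.56 (edgeR adjusted p = 0.745), which reaches from 0.530-fold to 1.47-fold. It was -0.31 against Tnfr1-/- (edgeR adjusted p = 0.679) and -0.88 against Casp8-/- Mlkl-/- livers (adjusted p = 0.258), and the latter value was -0.29 without Casp8-/- Mlkl-/- replicate 1. Exons of *Csf1r* overlap those of *Hmgxb3* on the opposite strand, and 14.3% of its 50-base stretches are found in other genes. Since the use of strand in counting is not given, reads of the overlapping genes cannot be told apart.

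Both chains of the GM-CSF receptor lay higher in Casp8-/- Tnfr1-/- livers, although its ligand was not detected. The ligand-binding chain *Csf2ra* (chr19:61223957-61228429, minus strand) measured 16.2, 11.3 and 12.6 CPM in WT, 14.03 and 15.6 in Tnfr1-/-, and 20.3, 16.4 and 13.8 in Casp8-/- Mlkl-/- livers. In Casp8-/- Tnfr1-/- livers it measured 28.4, 36.1 and 74.3 CPM. All 3 lay above the 8 others, and replicate 3 was the highest. The log2 fold change was 1.79 ± 0.34 (SE) against WT (3.46-fold, edgeR adjusted p = 0.0145). It did not pass the threshold against Tnfr1-/- livers (1.64, edgeR adjusted p = 0.0668) or Casp8-/- Mlkl-/- livers (1.46, adjusted p = 0.0682). Without the pair of livers that stood apart these values were 1.28, 1.14 and 1.10 and all 3 passed. The call against WT was lost without WT replicate 2 or 3 (1.68 and 1.76, edgeR adjusted p = 0.0808 and 0.0819), and the other comparisons were called without Casp8-/- Tnfr1-/- replicate 1 (1.90 and 1.72, adjusted p = 0.0306 and 0.0329) or replicate 3 (1.12 and 0.94, adjusted p = 0.0228 and 0.0414).

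The shared signalling chain *Csf2rb* (chr15:78325752-78353847, plus strand) passed the threshold in all 3 comparisons. It measured 28.0, 25.4 and 20.8 CPM in WT, 27.2 and 26.6 in Tnfr1-/-, and 38.1, 28.4 and 28.9 in Casp8-/- Mlkl-/- livers. In Casp8-/- Tnfr1-/- livers it measured 77.3, 86.7 and 144 CPM, again above all 8 others and highest in replicate 3. The log2 fold change was 2.05 ± 0.25 (SE) against WT (4.15-fold, edgeR adjusted p = 0.00155), 1.93 ± 0.29 against Tnfr1-/- (adjusted p = 0.00834) and 1.69 ± 0.24 against Casp8-/- Mlkl-/- livers (adjusted p = 0.00876). The call against Tnfr1-/- livers was lost without Tnfr1-/- replicate 1 or 2 (edgeR adjusted p = 0.164 and 0.139), and that against Casp8-/- Mlkl-/- livers without replicate 2 or 3 of that genotype (0.0607 and 0.0626). The second copy, *Csf2rb2* (chr15:78282507-78305721, minus strand), measured 34.8, 37.9 and 86.3 CPM in Casp8-/- Tnfr1-/- livers and 7.93 to 21.6 in the 8 others. Its log2 fold changes in the same order of comparisons were 2.53, 2.23 and 1.79 (edgeR adjusted p = 0.00530, 0.0295 and 0.0443). *Csf2rb2* per *Csf2rb* was 0.348 to 0.568 in the 8 other livers and 0.450, 0.437 and 0.598 in Casp8-/- Tnfr1-/- livers, so the ranges overlapped (exact permutation p = 0.127, adjusted over 8 ratios 0.145). Per kilobase, *Csf2rb* stood at 0.639 to 0.876 of *Csf2ra* in the 8 other livers and at 1.06, 0.933 and 0.754 in Casp8-/- Tnfr1-/- livers (exact permutation p = 0.0242, adjusted 0.0323), and the third of these lies within the range of the others.

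*Csf3r* (chr4:126024550-126044440, plus strand), the receptor for G-CSF and a gene of the neutrophil lineage, had the largest fitted change of the 5 genes and the widest spread. It measured 13.4, 12.8 and 9.82 CPM in WT, 14.8 and 17.1 in Tnfr1-/-, and 28.1, 16.0 and 17.4 in Casp8-/- Mlkl-/- livers. In Casp8-/- Tnfr1-/- livers it measured 35.1, 38.1 and 197 CPM. All 3 lay above the 8 others, with replicate 3 far above the other two. The log2 fold change against WT was 2.91 ± 0.62 (SE; 7.49-fold, edgeR adjusted p = 0.0256). It was not called against Tnfr1-/- livers (2.49, edgeR adjusted p = 0.122) or Casp8-/- Mlkl-/- livers (2.13, adjusted p = 0.131). Without Casp8-/- Tnfr1-/- replicate 3 these values were 1.62, 1.20 and 0.84 (edgeR adjusted p = 0.00334, 0.0333 and 0.111). The call against WT was also lost without any 1 of the WT livers (edgeR adjusted p = 0.0989, 0.107 and 0.130) or Tnfr1-/- replicate 1 (0.0508), and with limma-voom (0.0604).  Of the 50-base stretches of *Csf3r*, 10.7% were also found in another gene, and *AC105061.2* shared more of them than any other. *Csf1*, *Csf2ra*, *Csf2rb* and *Csf3r* each gave p = 0.00606 in the exact permutation test of 3 livers against 8, which is the smallest it can give.

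**Figure D2:**
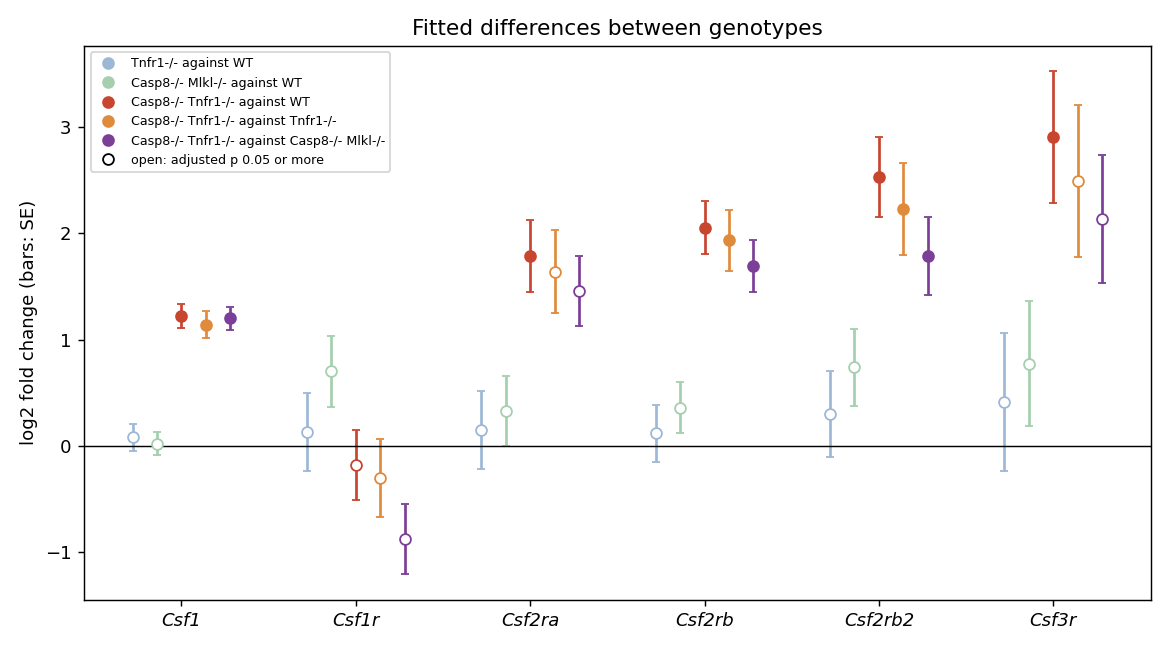
Fitted log2 fold change (vertical axis, bars are SE) of *Csf1*, *Csf1r*, *Csf2ra*, *Csf2rb*, *Csf2rb2* and *Csf3r* in the 5 comparisons, with filled points where the edgeR adjusted p is under 0.05. Every filled point belongs to a comparison of Casp8-/- Tnfr1-/- livers, and *Csf1r* has none.

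On the scale per kilobase, the order of the receptors by group mean differed between WT and Casp8-/- Tnfr1-/- livers. The places of *Csf3r*, *Csf2ra* and *Csf2rb* above *Csf1r* in the latter all rested on replicate 3. In Casp8-/- Tnfr1-/- replicates 1 and 2 *Csf1r* was the highest of the 4 receptors, at 20.2 and 21.6 CPM per kilobase. The next receptor was *Csf2rb* at 16.2 in replicate 1 and *Csf2ra* at 19.5 in replicate 2, and *Csf3r* was the lowest in both, as in WT livers. In WT livers *Csf1r* was the most abundant at 21.5 ± 3.16 CPM per kilobase (SD, n = 3), followed by *Csf2ra* at 7.23 ± 1.38, *Csf1* at 6.23 ± 0.255, *Csf2rb* at 5.20 ± 0.771 and *Csf3r* at 3.42 ± 0.542. *Csf2ra* and *Csf1* differed by less than the SD of the former, and the gap from *Csf1* to *Csf2rb* was about the sum of their SDs. In Casp8-/- Tnfr1-/- livers *Csf3r* stood at 25.7 ± 26.4, *Csf2ra* at 25.0 ± 13.3, *Csf2rb* at 21.6 ± 7.62, *Csf1r* at 19.0 ± 3.43 and *Csf1* at 14.5 ± 0.324, and the 4 receptors did not differ beyond their spread. Within a liver, *Csf1r* per *Csf3r* was 4.60 to 7.22 in the 8 other livers and 2.01, 1.99 and 0.269 in Casp8-/- Tnfr1-/- livers. *Csf1* per *Csf1r*, the ligand against its receptor, was 0.110 to 0.334 in the 8 others and 0.734, 0.655 and 0.965 in Casp8-/- Tnfr1-/- livers. Neither pair of ranges overlapped (exact permutation p = 0.00606 for each, the smallest possible, adjusted over 8 ratios 0.0121).

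The receptor levels were then set against genes of the cells that carry them. *Csf1r* per 100 CPM of 20 macrophage genes was 11.2 to 13.4 in the 8 other livers, Casp8-/- Mlkl-/- replicate 1 included at 13.1, and 8.74, 8.95 and 6.02 in Casp8-/- Tnfr1-/- livers (exact permutation p = 0.00606, adjusted 0.0121). This separation rested on *Lyz2*, which neutrophils also express and which held 559, 660 and 815 CPM in Casp8-/- Tnfr1-/- livers and 168 to 582 in the others. With the other 19 genes alone, a choice made after the values were seen, the ratio was 17.3, 20.3 and 17.98 against 14.6 to 18.6, so the ranges overlapped. The summed level of those 20 genes was 1128 to 1225 CPM in Casp8-/- Tnfr1-/- livers and 714 to 2168 in the others, and 2 of them had 0 counts in at least 1 liver (*Cd163* and *Vsig4*). Of the 20 genes, 3 were called higher against WT and 2 lower, with a median log2 fold change of -0.19 beside a median of 0.00 over all genes tested. With the pair of livers that stood apart left out, 7 were called higher and 7 lower. The higher ones in the fit of all livers, *Cd14*, *Cd68* and *Lyz2*, are also expressed by other myeloid cells, and the lower ones, *Clec4f* and *Marco*, mark resident macrophages of the liver. *Marco* was named after its values were seen. *Clec4f* held 1.16, 0.551 and 0.114 CPM in Casp8-/- Tnfr1-/- livers, 10.5 to 13.9 in WT and Tnfr1-/- livers and 0.203 to 5.47 in Casp8-/- Mlkl-/- livers. *Marco* held 13.4 to 28.8 CPM in Casp8-/- Tnfr1-/- livers and 48.7 to 71.9 in WT and Tnfr1-/- livers. In Casp8-/- Mlkl-/- livers it held 90.7 to 240 CPM, so there it lay higher where *Clec4f* lay lower. The other 15 genes of the list were not called against WT in the fit of all livers.

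Against the genes of neutrophil precursors, *Csf3r* in Casp8-/- Tnfr1-/- replicates 1 and 2 lay within the range of the other livers for early genes and below it for late ones. The list of 10 primary granule genes, most of which are switched on at the promyelocyte stage, summed to 2426 to 2896 CPM in Casp8-/- Tnfr1-/- livers and 681 to 1875 in the 8 others. *Csf3r* per 100 CPM of these genes was 1.45, 1.31 and 7.71 in Casp8-/- Tnfr1-/- livers against 1.28 to 1.86 in the others, so replicates 1 and 2 lay inside that range and replicate 3 far above it (exact permutation p = 0.248, adjusted 0.248). Much of that sum was *Hp*, haptoglobin, which hepatocytes also make in the acute phase, at 968, 1094 and 2048 CPM in Casp8-/- Tnfr1-/- livers, 1119 in Casp8-/- Mlkl-/- replicate 1 and at most 146 in the other 7. The remaining 9 genes summed to 1457, 1802 and 504 CPM in Casp8-/- Tnfr1-/- livers and 619 to 1021 in the others, so replicate 3 was the lowest of all 11 livers. *Csf3r* per 100 CPM of these 9 genes was 2.41, 2.11 and 39.0 against 1.49 to 3.72. The highest of the others was Casp8-/- Mlkl-/- replicate 1. The other 7 reached at most 2.18, so Casp8-/- Tnfr1-/- replicate 1 lay above those 7 and replicate 2 within their range. The 18 late neutrophil genes summed to 5920, 7091 and 19996 CPM in Casp8-/- Tnfr1-/- livers, 3583 in Casp8-/- Mlkl-/- replicate 1 and 764 to 1129 in the other 7. *Csf3r* per 100 CPM of them was 0.594, 0.537 and 0.984 in Casp8-/- Tnfr1-/- livers against 0.785 to 2.19 in the others (exact permutation p = 0.0182, adjusted 0.0291), and the lowest of the others was Casp8-/- Mlkl-/- replicate 1. Late per primary granule genes stood at 2.44, 2.45 and 7.84 in Casp8-/- Tnfr1-/- livers and at 0.729 to 1.91 in the 8 others (exact permutation p = 0.00606, adjusted 0.0121). Without *Hp* they stood at 4.06, 3.94 and 39.7 against 0.777 to 1.40 in 7 of the others and 4.74 in Casp8-/- Mlkl-/- replicate 1, so the groups overlapped.

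**Figure D3:**
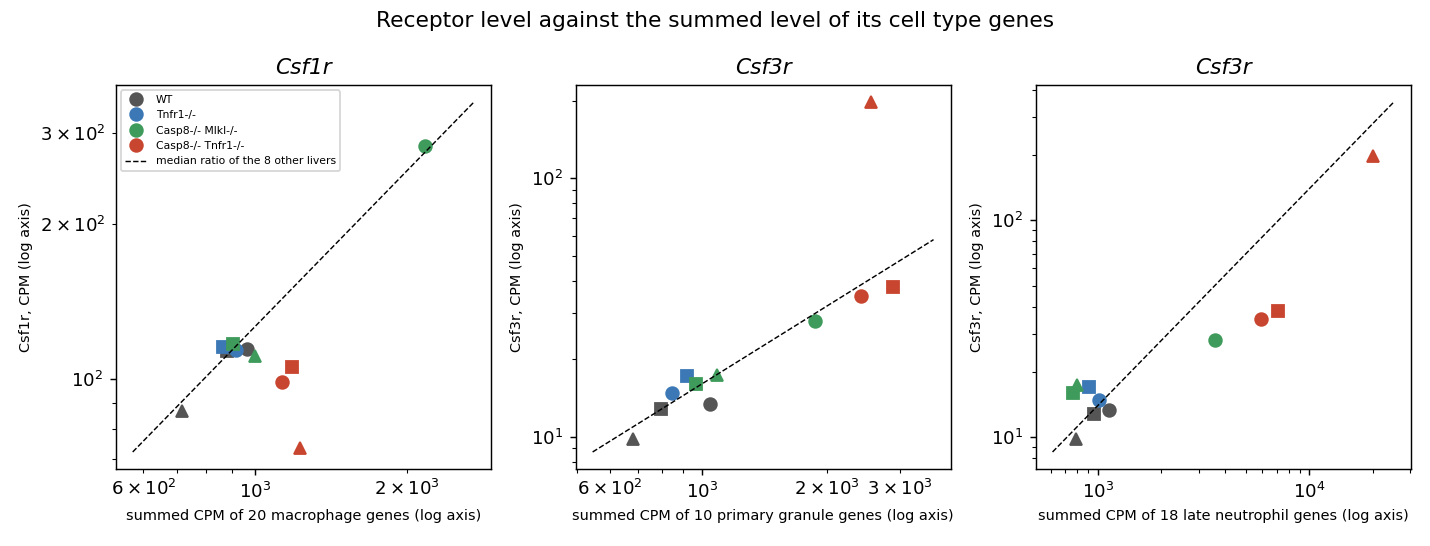
Level of *Csf1r* or *Csf3r* (vertical, CPM, log axis) against the summed CPM of macrophage, primary granule or late neutrophil genes (horizontal, log axis) in the 11 livers, with genotypes by colour, replicates 1, 2 and 3 as circles, squares and triangles, and the median ratio of the 8 other livers as a dashed line. For *Csf1r* against macrophage genes the 3 Casp8-/- Tnfr1-/- livers lie under the line, which they do not without *Lyz2*, and for *Csf3r* against primary granule genes replicates 1 and 2 lie near it and replicate 3 at 7.71 CPM per 100 CPM above it.

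Of the 18 late neutrophil genes, 14 were called higher against WT, 3 against Tnfr1-/- and 1 against Casp8-/- Mlkl-/- livers, and 0 were lower, with a median log2 fold change of 3.33 against WT. *S100a8*, a calcium-binding protein stored by neutrophils, measured 828, 1056 and 3297 CPM in Casp8-/- Tnfr1-/- livers and 136 to 448 in the others. *Lcn2*, a granule protein that binds iron carriers, was called in all 3 comparisons, with a log2 fold change of 4.87 against WT (edgeR adjusted p = 0.00687). It was the 1 late gene called against Casp8-/- Mlkl-/- livers, and which cells of the liver made its RNA was not tested. Of the 10 primary granule genes 2, 1 and 1 were called higher in the same order, with a median of 0.91 against WT. They were *Srgn*, a proteoglycan that many blood cells make, and, against WT alone, *Ctsc*, the protease that activates granule proteases. Without the pair of livers that stood apart all 18 late genes were called higher in each of the 3 comparisons, with a median of 2.66 against WT, and 10, 10 and 9 primary granule genes, with a median of 1.28 against WT. Leaving out Casp8-/- Mlkl-/- replicate 1 alone gave 18, 15 and 17 late genes, beside 1246, 619 and 518 of all 17081 genes tested called higher. Leaving out Casp8-/- Tnfr1-/- replicate 3 alone gave 12, 7 and 2 late and 8, 8 and 5 primary granule genes. That was beside 1239, 759 and 482 of all 17027 genes tested called higher. In the fit of all livers 879, 353 and 265 of 17243 were called higher.

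Of 15 other cytokines that act on blood progenitors or set off their production, 10 could be tested, and 2 were called higher and 1 lower against WT. The counts were 4 and 1 without the pair of livers that stood apart. *Il1b*, the inflammatory cytokine interleukin 1β, measured 2.87, 2.31 and 4.22 CPM in Casp8-/- Tnfr1-/- livers, 0.126 to 0.246 in WT and Tnfr1-/- livers and 2.76, 0.552 and 0.879 in Casp8-/- Mlkl-/- livers. It rose by 4.25 on the log2 scale against WT (edgeR adjusted p = 0.00586) and 3.80 against Tnfr1-/- livers (adjusted p = 0.0283). Against Casp8-/- Mlkl-/- livers it was 1.17 (edgeR adjusted p = 0.337), and the groups overlapped, with the second Casp8-/- Tnfr1-/- liver under the first Casp8-/- Mlkl-/- liver.

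*Tnf* measured 4.61, 3.99 and 2.17 CPM in Casp8-/- Tnfr1-/- livers and 0.237 to 1.26 in the 8 others, with a log2 fold change of 2.69 against WT (edgeR adjusted p = 0.0203). It was lowest in replicate 3, the liver in which *Csf3r* was highest. *Cxcl12*, the chemokine that holds progenitors and neutrophils in blood-forming tissue, was lower in Casp8-/- Tnfr1-/- livers at 123, 128 and 88.4 CPM against 164 to 218 in the others, by -0.66 on the log2 scale against WT (edgeR adjusted p = 0.0391). Neither *Tnf* nor *Cxcl12* was called against Casp8-/- Mlkl-/- livers in the fit of all livers. *Il6*, which also promotes granulopoiesis, reached 0.641, 0.620 and 1.42 CPM against at most 0.422 in the others and was not called (edgeR adjusted p = 0.139). *Lif*, a relative of *Il6*, was at 0.580, 0.413 and 6.61 CPM and was not called (edgeR adjusted p = 0.0886).

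The remaining cytokines were not called or were too low to test. *Kitl*, *Flt3l*, *Thpo*, *Epo* and *Il1a*, the growth factors of stem cells, dendritic cells, platelets and red cells and interleukin 1α, were not called, with log2 fold changes against WT of -0.70, -0.38, 0.61, 0.15 and 1.03. *Il3* and *Il17a*, of which the second induces G-CSF, had 0 counts in all 11 livers. *Il34*, the other ligand of CSF1R, had 30 counts in Casp8-/- Tnfr1-/- replicate 3 and at most 12 in any other liver. *Il5* had at most 2 counts in a liver, and *Il11* had 28 in that replicate 3 and at most 9 elsewhere.

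Of 13 other receptors 12 could be tested, and 4, 2 and 1 were called higher in Casp8-/- Tnfr1-/- livers against WT, Tnfr1-/- and Casp8-/- Mlkl-/- livers. *Csf2rb2*, described above, was the one called in all 3, and *Il5ra*, the one not tested, had at most 12 counts in a liver. These counts became 7, 5 and 6 higher and 2, 2 and 1 lower without the pair of livers that stood apart. *Il1r1*, the signalling receptor for interleukin 1, measured 106, 104 and 182 CPM against 43.1 to 88.3 in the others and stood 2.84-fold higher than in WT (edgeR adjusted p = 0.00729). *Il6st*, the gp130 chain of the interleukin 6 receptor family, rose by 1.68 (edgeR adjusted p = 0.0139). *Cxcr2*, a chemokine receptor of mature neutrophils, measured 20.2, 23.4 and 135 CPM against 2.92 to 12.8 and rose by 4.06 (edgeR adjusted p = 0.0230), with replicate 3 set apart as for *Csf3r*. *Kit*, *Flt3* and *Epor*, the receptors of early progenitors and of red cell precursors, were not called, at 0.28, -0.91 and -1.02 against WT (edgeR adjusted p = 0.371, 0.179 and 0.0641).

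**Figure D4:**
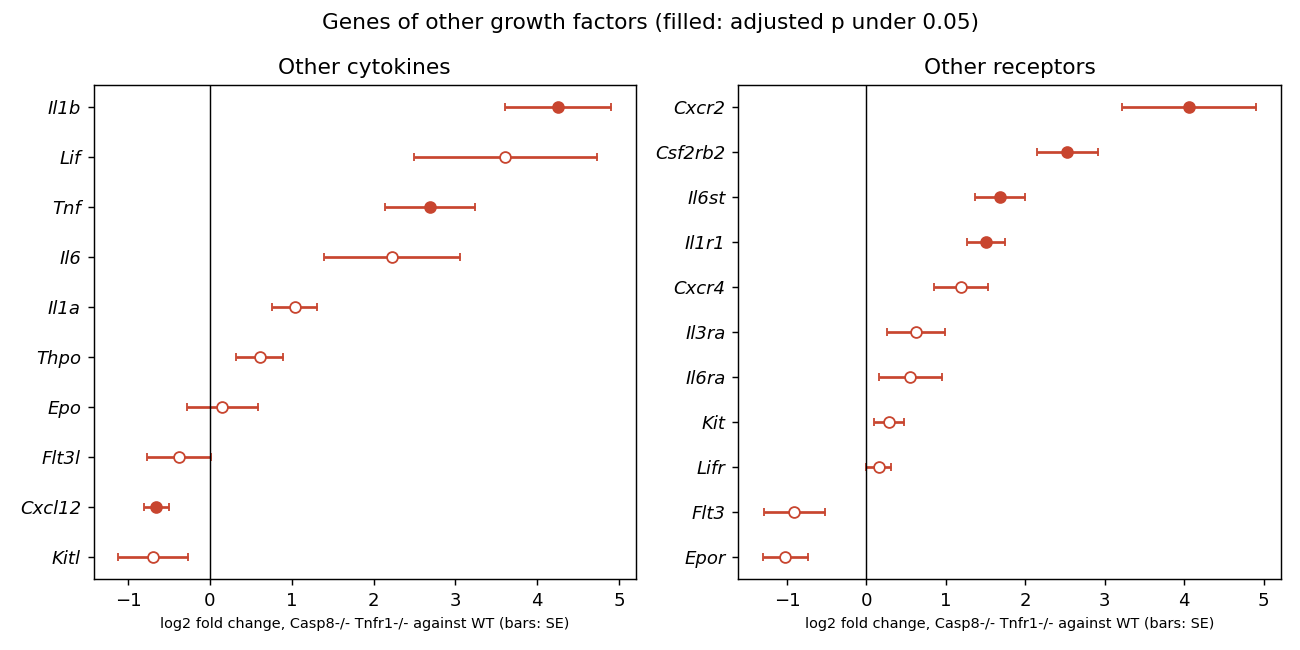
Log2 fold change in Casp8-/- Tnfr1-/- against WT livers (horizontal axes, bars are SE) of 10 tested genes of other cytokines and 11 of the 12 tested genes of other receptors (1 is not shown), ordered by size, with filled points where the edgeR adjusted p is under 0.05. *Il1b* at 4.25, *Tnf* at 2.69 and *Cxcl12* at -0.66 are filled among the cytokines, and *Cxcr2*, *Csf2rb2*, *Il6st* and *Il1r1* among the receptors.

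Of 24 genes that carry the signals of these receptors, 7 were called higher against WT, 4 against Tnfr1-/- and 2 against Casp8-/- Mlkl-/- livers, and 0 lower, with a median log2 fold change of 0.62 against WT. Without the pair of livers that stood apart 12, 11 and 11 were higher and 2, 1 and 1 lower, with a median of 0.35 against WT. The Src-family kinases *Fgr* and *Lyn*, which act next to these receptors in myeloid cells, rose by 3.12 and 0.99 (edgeR adjusted p = 0.00236 and 0.00839). Of 9 transcription factors of the granulocyte lineage, 3 were called higher against WT, 1 against Tnfr1-/- and 0 against Casp8-/- Mlkl-/- livers. In each comparison 0 were called lower. The 3 called against WT were *Spi1*, which encodes PU.1, at 39.9, 50.6 and 62.1 CPM against 12.6 to 32.0 in the others, *Cebpe*, which is needed for late granules, and *Cebpd*. Without the pair 7, 5 and 6 of the 9 were called higher and 0, 1 and 0 lower, in the same order of comparisons.

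*Cebpb*, the factor named with emergency granulopoiesis, measured 9.09, 13.6 and 96.0 CPM in Casp8-/- Tnfr1-/- livers and 3.77 to 8.55 in the 8 others. All 3 lay above, by little in replicate 1, and its log2 fold change of 2.97 against WT missed the threshold (edgeR adjusted p = 0.0544). Of 10 transcription factors of the monocyte lineage, 2 were called higher against WT, 1 against Tnfr1-/- and 1 against Casp8-/- Mlkl-/- livers. In each comparison 0 were called lower. Without the pair of livers that stood apart 7, 6 and 5 were called higher and 0, 1 and 0 lower, in the same order. *Egr2*, which CSF-1 and other growth signals induce, measured 1.89, 2.27 and 8.60 CPM against 0.0384 to 0.243 in the others and was called in all 3 comparisons (edgeR adjusted p = 0.00605, 0.0215 and 0.0165). *Nr4a1*, a factor of patrolling monocytes that many stimuli induce, rose by 3.66 against WT (edgeR adjusted p = 0.0316) and reached 62.8 CPM in replicate 3 against 6.50 and 7.06 in the other two.

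Genes of the other cells of the liver were counted in the same way. Of 11 erythroid, 9 hepatocyte, 8 stromal and 11 tested striated muscle genes 0 were called against WT in either direction, and of 10 endothelial genes 1 was, *Pecam1*, higher at 1.30 on the log2 scale (edgeR adjusted p = 0.0449). Without the pair of livers that stood apart all 11 erythroid genes were called lower against WT, with a median of -0.43 on the log2 scale. Of all 16958 genes tested without the pair, 2297 were called lower against WT and 3017 higher. In that fit 5 hepatocyte genes were lower and 1 higher, 4 stromal genes and 1 striated muscle gene were higher, and 2 endothelial genes were higher and 1 lower. The summed level of 11 erythroid genes was 45084, 44974 and 175604 CPM in Casp8-/- Tnfr1-/- livers and 47301 to 72471 in the others, so 2 of the 3 lay below all 8 others and replicate 3 above. The sum of 8 stromal genes was 1048 to 5660 and 818 to 1265 CPM. In both lists the highest Casp8-/- Tnfr1-/- value was that of replicate 3, and the part of these cells in the receptor levels of that liver was not tested.

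The genes whose log2 CPM most resembled each of the 5 tested genes over the 11 livers differed from member to member. For *Csf1* they were *Pdgfrl*, *Gbp11* and *Herc6*, at a Pearson's r of 0.988, 0.987 and 0.981. For *Csf1r* they were *Bace1*, the complement gene *C1qc* and *Elovl6* (0.977, 0.977 and 0.972). *Csf2ra* was most like *Lrrc27*, *Il1r2* and *Fmnl1* (0.988, 0.987 and 0.987), *Csf2rb* like *Lgals3*, *Rab27a* and *Gda* (0.997, 0.997 and 0.993), and *Csf3r* like *Syne1*, *Hivep2* and *Stat3* (0.994, 0.990 and 0.990). Among the 5 genes themselves, r was 0.940 to 0.971 between the 3 receptors *Csf2ra*, *Csf2rb* and *Csf3r*, 0.806 to 0.947 between *Csf1* and those receptors, and -0.403 to -0.224 between *Csf1r* and each of the other 4. Without Casp8-/- Tnfr1-/- replicate 3 the last were -0.233 with *Csf1* and 0.029 to 0.314 with the receptors. The sign with the receptors thus rested on that liver, and the sign with *Csf1* did not. These values describe 11 livers that share genotypes, library sizes and the liver that stood apart, and for the genes named with *Csf3r* r was 0.967 to 0.981 without it.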

How the data were processed

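RNA of 11 whole fetal livers was sequenced as single-end 50-base reads, which the authors aligned to GRCm38 with GSNAP. The labels and the study's methods name different library kits and sequencers, and whether strand was used in counting is not given in the sources used here. The authors deposited raw counts of reads on the exons of each gene, a width in bases for each gene and RPKM values, which divide the count by that width and by a read total. Counts were tested, width gave CPM per kilobase, and RPKM values were not used for any result.

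Symbols and positions came from GENCODE M21, which held 52403 of the 52636 genes. Genes were filtered by filterByExpr (minimum count 10), scaled by TMM, and the 4 genotypes were fitted with edgeR 4.0.16 (glmQLFit and glmQLFTest, genotype as the only factor), with Benjamini-Hochberg adjustment over the 17243 genes tested. SE is the fitted log2 fold change divided by the square root of F. Ratios within a liver, the members with counts and *Csf2rb2* were tested by exact two-sided permutation. It covered the 165 splits of 11 livers into 3 and 8. CPM sums over gene lists are given as values and were not tested. The adjustment over ratios and the intervals used scipy 1.17.1. Log2 CPM used a prior count of 2. The fit was tested on simulated data. Alternatives were DESeq2 1.42.0, limma-voom (limma 3.58.1), DESeq2's size factors in edgeR, no filter, only the 2 genotypes compared, a replicate block, each liver left out, and, added after seeing the data, both livers with a TMM factor under 0.9 left out, and *Lyz2* or *Hp* left out of the sum of its list (values only, with no test).

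The members and gene lists were chosen with earlier results of these data known. All 7 members, the other cytokines and receptors, up to 4 genes of each further list with the smallest p against WT, and the 3 genes most like each tested member were named. Values of a few genes of these lists are not reported here. Limits from counts cover counting error only, since reads carry no molecular identifiers. No pair of livers agreed within sampling noise (chi-square per degree of freedom at least 6.03).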

Additional observations from a re-analysis of the deposited data

How the results depend on the processing

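*Csf1* and *Csf2rb* of Casp8-/- Tnfr1-/- livers were called higher against WT in 19 of 19 settings, *Csf2ra* in 16 and *Csf3r* in 12. Of the 1000 genes called against WT, 374 against Tnfr1-/- and 285 against Casp8-/- Mlkl-/- livers, DESeq2's Wald test gave 2364, 1269 and 941, the fit of only the 2 genotypes compared 486, 56 and 11, the replicate block 572, 189 and 144, and the fit without both livers of low TMM factor 5314, 3931 and 3067. Members called, 4, 2 and 2, became 2, 0 and 0 with only the 2 genotypes, 4 against Tnfr1-/- and 4 against Casp8-/- Mlkl-/- with the Wald test, and 4 and 4 without both livers. Between Casp8-/- Mlkl-/- and WT livers the 1 gene called became 3 with DESeq2's size factors, 90 with the Wald test, 14 with no filter, 0 with the block and 1086 without both livers, where 1 member (*Csf3r*) was called. Between Tnfr1-/- and WT livers the count of 0 became 259 with only those genotypes and 115 without both livers. The cause was not tested.

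Leaving out 1 liver at a time gave 281 to 1674, 30 to 883 and 83 to 564 genes called, and 2 to 4, 0 to 4 and 1 to 3 members, in the same order of comparisons, and 0 to 27 genes between Casp8-/- Mlkl-/- and WT livers. *Csf1* ranged from -0.016 to 0.043 on the log2 scale between Casp8-/- Mlkl-/- and WT livers and from -0.0055 to 0.16 between Tnfr1-/- and WT livers, and *Csf1r* between the latter was -0.042 with the replicate block against 0.13. Replicate numbers did not pair the livers: deviations from the group means correlated at -0.297 to 0.275 for livers of the same number and -0.284 to 0.309 for others. With the block *Csf3r* against WT was 2.58 (edgeR adjusted p = 0.0786). Groups of 2 and 3 livers, a common biological coefficient of variation of 33.3% and the depth for *Csf2* and *Csf3* limit these comparisons.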
